A study of Mus musculus with 28 samples.

Results

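Co-inhibitory receptors are surface proteins that dampen T cell activation, and the TOX factors are DNA-binding proteins linked to their expression in T cells that meet antigen for a long time. The set holds 10 genes, matched by symbol to 10 of the 55413 Ensembl gene IDs of the files. It has 8 surface proteins (Pdcd1, Lag3, Havcr2, Tigit, Cd160, Btla, Entpd1 and Cd200) and 2 TOX factors (Tox and Tox2). The rule lists symbols and uses no measured value. Every member had counts in each of the 27 libraries compared.

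Magnetic sorting for CD3-positive T cells was applied to spleens of C57BL/6J males aged 8 to 12 weeks, and total RNA was sequenced. Untreated mice (NT, n = 7) were set beside mice given 1 dose a day for 11 days. These received empty polymersomes (PS, 60 mg polymer/kg, n = 4), rapamycin in 0.2% CMC (R, n = 6) or rapamycin-loaded polymersomes with the same polymer dose (rPS, n = 5), all injected subcutaneously, or oral Rapamune (RO, n = 6). Rapamycin, an inhibitor of the kinase mTOR, was given at 1 mg/kg per dose in R, RO and rPS. Polymersomes are vesicles of a PEG-b-PPS polymer, and no group received CMC alone or the oral vehicle alone. Although the submitters' text mentions single cells, each file holds counts for 1 bulk library, and nothing states that mice were pooled.

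PD-1 (Pdcd1) and TIGIT are receptors that oppose T cell receptor and costimulatory signalling, PD-1 by recruiting phosphatases and TIGIT partly by competing with CD226 for ligands of the nectin family. LAG-3 binds MHC class II, TIM-3 (Havcr2) is found on T cells and on myeloid cells, and CD160 and BTLA share the ligand HVEM (Tnfrsf14). CD39 (Entpd1) is an enzyme that breaks down extracellular ATP and is abundant on myeloid cells, regulatory T cells and B cells. CD200 signals to a receptor on myeloid cells and is also made by B cells. In the spleen of a healthy mouse, most T cells are resting, and several of these genes are also used by B cells, myeloid cells or NK cells.

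Several libraries stood apart before any comparison. In 7 of the 28 libraries (replicate 3 of R, replicate 3 of RO, and replicates 3, 4, 5, 7 and 8 of NT) the mean log2 CPM was lower over 14 T cell genes than over 12 monocyte and macrophage genes, and these are called T-cell-poor. NT replicate 5 lay nearest to that line inside it (6.12 against 6.3 on the log2 scale), and rPS replicate 1 nearest outside it (7.35 against 6.78). CPM is a count scaled to the library's total count. Cd3e, which encodes part of the CD3 complex, reached at most 76 CPM in T-cell-poor libraries (lowest 9.58) and was at 122 to 471 CPM in the 20 other libraries compared. All 14 T cell genes had counts in every library, and their summed level was 177 to 1090 CPM against 1530 to 4650 CPM. The summed monocyte and macrophage level was 2070 to 8910 CPM against 284 to 2740 CPM, with all 12 genes detected. B cell genes were present in all 27 libraries (744 to 6830 CPM summed over 12 genes), so the sorted cells held more than T cells. RO replicate 7 listed 0 for genes from a point on chromosome 12 onward, which removed Tigit, Btla, Cd200 and Entpd1, and it was left out of all fits. All 7 NT files list Malat1 and mt-Rnr2 at 0, and none of the 20 treated libraries compared does. Differences from NT therefore cannot be told apart from a difference in how the NT files were made. Total counts ran from 4286896 to 15696541 per library, and 3 counts, the limit that a count of 0 allows, equal 0.191 to 0.7 CPM.

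RefSeq promoter windows (build GRCm38.p6) are held for 8 of the 10 members, 14 windows in all, with no entry for Lag3 and Tox. Windows of 3 members are printed, each as the 250 bases before the start site, 5′ to 3′: Pdcd1 and Tigit because their levels moved most alike among the receptors, and Havcr2 because it held a match to a searched motif. Capitals mark that match.
Pdcd1 (chr1:94052554-94052803, minus strand): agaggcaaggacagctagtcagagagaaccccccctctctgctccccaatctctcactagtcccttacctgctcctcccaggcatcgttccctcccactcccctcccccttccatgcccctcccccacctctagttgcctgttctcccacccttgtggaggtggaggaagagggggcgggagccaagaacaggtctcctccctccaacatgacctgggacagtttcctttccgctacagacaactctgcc
Tigit (chr16:43664185-43664434, minus strand): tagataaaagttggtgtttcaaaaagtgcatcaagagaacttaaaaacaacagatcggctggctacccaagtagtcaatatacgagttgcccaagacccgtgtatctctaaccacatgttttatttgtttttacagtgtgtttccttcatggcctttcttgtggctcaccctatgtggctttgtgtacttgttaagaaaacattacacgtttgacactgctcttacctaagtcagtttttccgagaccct
Havcr2 (chr11:46454681-46454930, plus strand): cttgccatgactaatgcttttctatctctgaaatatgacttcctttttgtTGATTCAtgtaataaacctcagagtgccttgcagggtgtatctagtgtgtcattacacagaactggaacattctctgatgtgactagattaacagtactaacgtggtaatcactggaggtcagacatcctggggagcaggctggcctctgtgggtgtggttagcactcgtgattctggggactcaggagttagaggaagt
The motifs searched on both strands were TGANTCA (AP-1), TGTTTAC (FOXO) and TGGAAA (the core bound by NFAT). No motif holds the letters of another. Of the 32851 mouse windows of this length, 6.75% held the first, 3.17% the second and 18.6% the third. The Havcr2 window held 1 AP-1 match, beginning 200 bases before the start site, and the 13 other windows of members held none of the 3 motifs. A match describes letters only, and the windows were not measured in these samples.

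The members split by how they followed the T cell content of a library. Havcr2 and Entpd1 were high where T cell transcripts were scarce, Tox and Cd160 were high where T cell transcripts were abundant, and Btla and Cd200 were spread over both kinds of library. Havcr2 lay between 29.9 and 84.6 CPM in the 7 T-cell-poor libraries (median 60.5) and between 1.55 and 15.3 CPM in the 20 others (median 9.48), with no overlap. Entpd1 also showed no overlap, at 57.5 to 139 CPM (median 109) against 9.84 to 55.9 CPM (median 33.5). The share of all genes without such overlap was not computed. Lag3 had medians of 23.9 and 11.1 CPM, with ranges of 13.7 to 30.9 and 4.41 to 17.6 CPM. These 3 genes had the largest ratios of medians, T-cell-poor over other libraries, at 6.39, 3.26 and 2.16.

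Tox showed the opposite order, with a median of 14.7 CPM in the T-cell-poor libraries (7.07 to 24.5) and 43.1 CPM in the others (13.1 to 76). Cd160 had medians of 7.14 and 14.4 CPM, and Tox2 1.09 and 2.06 CPM. Pdcd1 (5.52 and 5.05 CPM), Tigit (3.67 and 3.31 CPM), Btla (191 and 208 CPM) and Cd200 (15 and 19.2 CPM) had medians closer to each other, with ratios of 1.09, 1.11, 0.92 and 0.779. These values describe libraries set apart by other genes and carry no test. In bulk RNA, fewer cells of a type and less RNA per cell cannot be told apart.

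**Figure D1:**
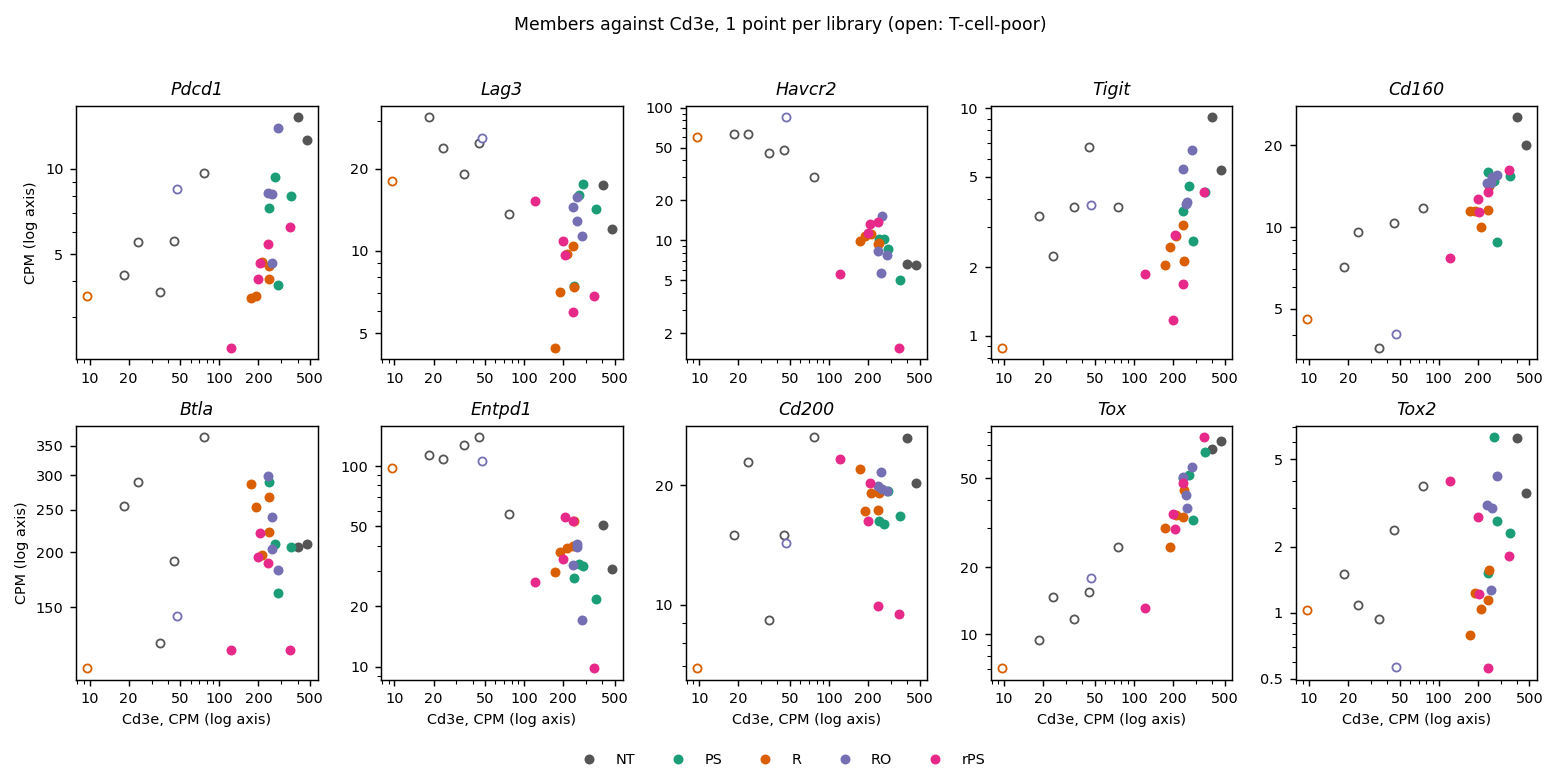
Each panel plots 1 member in CPM against Cd3e in CPM of the same library, both on log axes, with 1 point per library, colours for the 5 groups and open points for the 7 T-cell-poor libraries. Havcr2 and Entpd1 are highest in the open points, while Tox rises with Cd3e from 7.07 to 76 CPM.

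Levels of different genes can be compared only per length. In the 20 libraries with more T cell transcripts, and per kilobase of merged exon, Btla was the most abundant member at 63.1 ± 14.6 CPM per kb (SD, n = 20). Entpd1 (6.31 ± 2.17), Tox (5.86 ± 2.21), Cd200 (5.55 ± 1.19), Lag3 (5.38 ± 1.9) and Cd160 (5.31 ± 1.48 CPM per kb) followed, and neighbours in this order differed by less than their SD. Tigit (3.99 ± 2.07), Pdcd1 (3.48 ± 1.89) and Havcr2 (3.33 ± 1.21 CPM per kb) came next, again within their SD of each other. Tox2 was the least abundant at 0.736 ± 0.491 CPM per kb, with as few as 3 counts in a library.

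**Figure D2:**
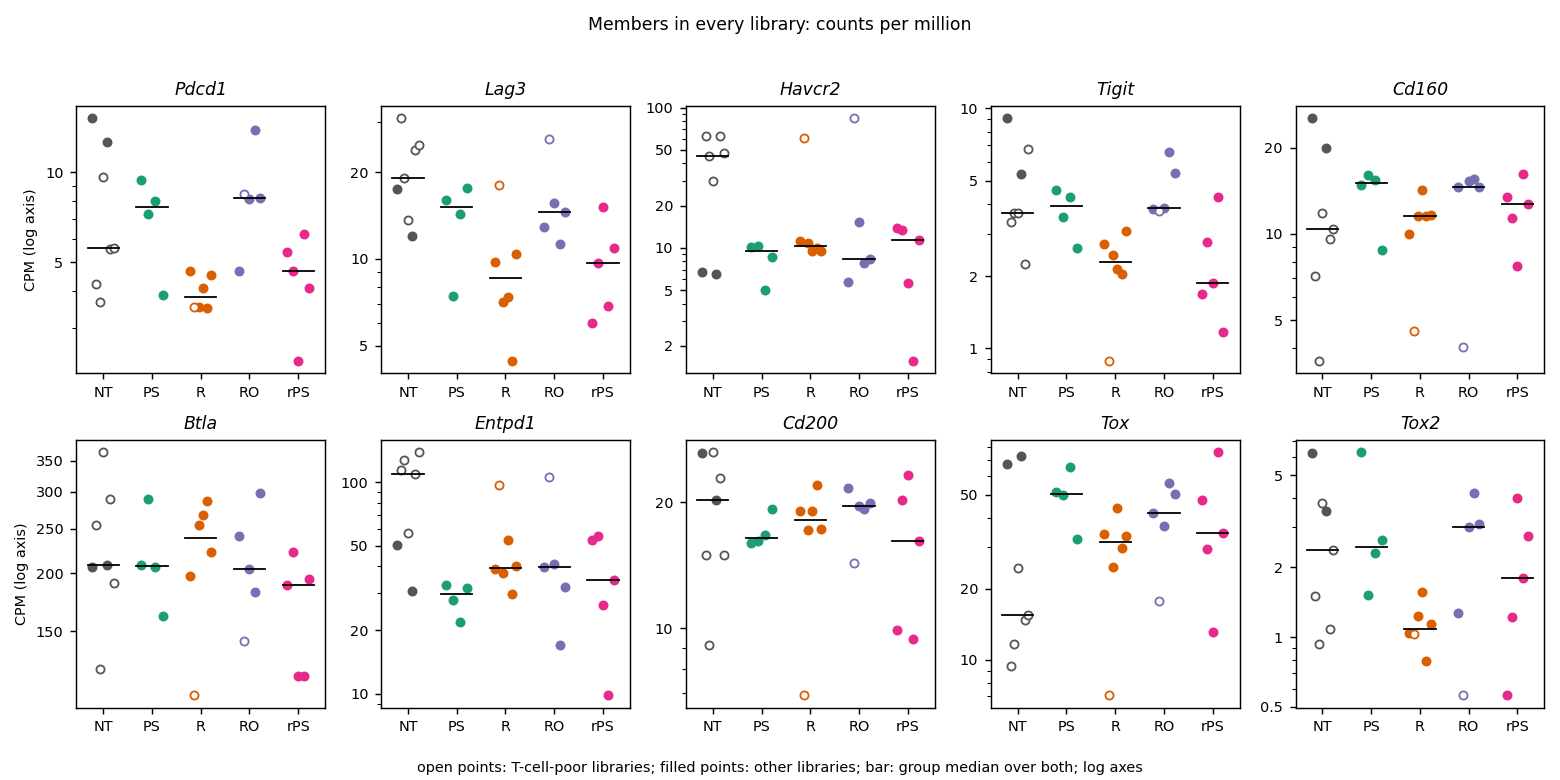
Each panel plots the CPM of 1 member on a log axis in every library of the 5 groups, with open points for T-cell-poor libraries and a bar at the group median. All 6 R libraries lie at or below 4.68 CPM for Pdcd1, and the Tigit values of R lie below all those of RO.

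Pdcd1 was lowest in R and rPS. Its lowest, median and highest levels were 3.67, 5.58 and 15.2 CPM in NT and 3.51, 3.82 and 4.68 CPM in R. The 5 rPS libraries read 2.33, 4.09, 4.66, 5.42 and 6.21 CPM, the 5 RO libraries 4.66, 8.14, 8.2, 8.48 and 13.9 CPM, and the 4 PS libraries 3.88, 7.26, 7.99 and 9.39 CPM. The NT values were split: the 2 NT libraries with more T cell transcripts (replicates 2 and 6) held 15.2 and 12.6 CPM, above all rPS, R and PS libraries, while the other 5 held 3.67 to 9.65 CPM. RO replicate 5, at 13.9 CPM, was the only treated library between the values of NT replicates 2 and 6. The share of all genes with these 2 NT libraries above all rPS, R and PS libraries was not computed.

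Tigit was also lowest in rPS and R, with medians of 1.87 and 2.3 CPM. Its lowest, median and highest levels were 2.25, 3.67 and 9.12 CPM in NT and 0.884, 2.3 and 3.07 CPM in R. The rPS libraries held 1.17, 1.68, 1.87, 2.78 and 4.27 CPM, the RO libraries 3.74, 3.81, 3.86, 5.4 and 6.56 CPM, and the PS libraries 2.62, 3.54, 4.27 and 4.56 CPM. Every R library was lower than every RO library, while rPS overlapped both. Without the T-cell-poor libraries, summed T cell levels were 1800 to 2340 CPM in R and 2550 to 3220 CPM in RO. Their part in the Tigit difference was not tested. Tigit counts were few, from 6 to 84 per library.

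Loaded polymersomes against no treatment asked what the whole formulation did. On the CPM scale, 3 of 10 members were lower in rPS than in NT and none higher (edgeR quasi-likelihood test, Benjamini-Hochberg adjusted p under 0.05 over 17132 genes). Over all tested genes 10.9% were lower and 10.6% higher. Tigit changed by -1.06 ± 0.35 on the log2 scale (SE, adjusted p = 0.0323 by edgeR), Lag3 by -1.13 ± 0.35 (adjusted p = 0.0251) and Entpd1 by -1.40 ± 0.47 (adjusted p = 0.0382). Entpd1 had 30.7, 109 and 139 CPM as its lowest, median and highest NT levels, and 9.84, 26.4, 34.5, 53.1 and 55.9 CPM in rPS, with the 2 groups overlapping. Lag3 had 12, 19.1 and 30.9 CPM in NT and 5.99, 6.86, 9.66, 10.9 and 15.2 CPM in rPS, where only rPS replicate 4 exceeded the lowest NT library. The median change of the 10 members was -0.68, and that of all tested genes -0.01. Single libraries decided these calls: without rPS replicate 7 no member was called (edgeR), 1 was called without NT replicate 8 or without rPS replicate 1, 4 or 5, and 4 without NT replicate 5. With B cell and monocyte marker levels as covariates Tigit stayed called (-1.58) and Pdcd1 was also called (-1.35), while Lag3 was at -0.48 and Entpd1 at -0.1 and neither was called.

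The T-cell-poor libraries moved with these calls, since 5 of the 7 were NT and none was rPS or PS. Without the 7 libraries, 3 members were again lower in rPS (background 8.63%), but only Tigit was in both sets of 3. Pdcd1 changed by -1.65 ± 0.34 (edgeR, adjusted p = 0.00414), Tigit by -1.60 ± 0.36 (adjusted p = 0.0073) and Cd160, a receptor of NK cells and CD8 T cells, by -0.94 ± 0.22 (adjusted p = 0.00933). Lag3 was then at -0.66 ± 0.35 (adjusted p = 0.203) and Entpd1 at -0.24 ± 0.43 (adjusted p = 0.739). NT then consisted of replicates 2 and 6 only, which had the highest summed T cell levels of all libraries (4150 and 4650 CPM against at most 3790 CPM in the rest). The part of T cell content in these differences was not tested, and values relative to Cd3e are given further on.

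Rapamycin in CMC against no treatment gave no call among the members on the CPM scale, where 0.665% of all genes were called in either direction. At an unadjusted p under 0.05, edgeR had 4 of the 10 members lower, beside 2374 of 17132 genes in either direction. DESeq2 called 3 members at its adjusted threshold. The members had a median of -0.93 and all genes one of 0. Leaving out NT replicate 5 gave 2 calls by edgeR, and leaving out R replicate 3 gave 1. Without the 7 libraries, 4 members were lower in R (background 2.8%). Pdcd1 changed by -1.82 ± 0.34 (edgeR, adjusted p = 0.00607), Tigit by -1.57 ± 0.36 (adjusted p = 0.019), Cd160 by -1 ± 0.22 (adjusted p = 0.0151) and Tox2 by -2.13 ± 0.53 (adjusted p = 0.03). With NT replicate 5 kept as the third NT library, Pdcd1 alone was called (-1.62).

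Tox2, a TOX family factor found in T follicular helper cells, was narrow and low in R. The lowest, median and highest levels were 0.791, 1.09 and 1.56 CPM in R and 0.938, 2.39 and 6.23 CPM in NT. RO libraries held 0.565, 1.27, 3, 3.09 and 4.21 CPM, PS libraries 1.52, 2.3, 2.62 and 6.3 CPM, and rPS libraries 0.561, 1.22, 1.81, 2.73 and 3.97 CPM. R overlapped every other group. Summed markers of T follicular helper cells, 8 genes of which 5 had counts in all 27 libraries, were 336 to 403 CPM in R and 302 to 430 CPM in NT, and their part in the Tox2 values was not tested. Their sum had a median of 382 CPM in T-cell-poor libraries and 327 CPM in the others, beside 424 and 2550 CPM for the T cell genes. It did not follow T cell transcripts and cannot be read as the content of these cells.

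Cd160 lay at 3.59, 10.4 and 25.4 CPM (lowest, median, highest) in NT and at 4.57, 11.5 and 14.2 CPM in R. RO libraries held 4.03, 14.6, 14.6, 15.3 and 15.6 CPM, PS libraries 8.78, 14.8, 15.4 and 16 CPM, and rPS libraries 7.7, 11.4, 12.7, 13.5 and 16.2 CPM. The lowest Cd160 values in NT, R and RO were those of T-cell-poor libraries. NT replicates 2 and 6, at 25.4 and 20 CPM, lay above all treated libraries. The share of all genes with this pattern was not computed.

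Empty polymersomes against no treatment gave 1 call on the CPM scale, Entpd1 at -1.79 ± 0.53 (edgeR, adjusted p = 0.049, background 2.46% lower). The 4 PS libraries held 21.8, 27.8, 31.7 and 32.6 CPM, and 2 of them lay above the lowest NT library at 30.7 CPM. No member was called when any 1 of the 4 PS libraries, or NT replicate 3, 4, 7 or 8, was left out, nor with the B cell and monocyte covariates, where Entpd1 was at -0.31. Without the 7 libraries Entpd1 was at -0.62 ± 0.44 (adjusted p = 0.374), and the 1 call was Cd160 at -0.84 ± 0.23 (adjusted p = 0.0313, background 4.65% lower). Cd160 had been at 0.02 ± 0.37 with all 27 libraries, so its call rests on leaving out the 7 libraries. Oral Rapamune against no treatment gave no call among the members with 27 libraries (background 0.0117%) or without the 7 (background 3.55%). In edgeR 0 members with 27 libraries and 2 without the 7 passed an unadjusted p under 0.05. Over all genes, 2178 of 17132 and 3556 of 17425 did so. DESeq2, run with all 27, called 0 members. With all 27 libraries the RO changes ran from -0.94 for Entpd1 to 0.32 for Tox. The 4 comparisons with NT share the same NT libraries, so their directions are not independent of each other.

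**Figure D3:**
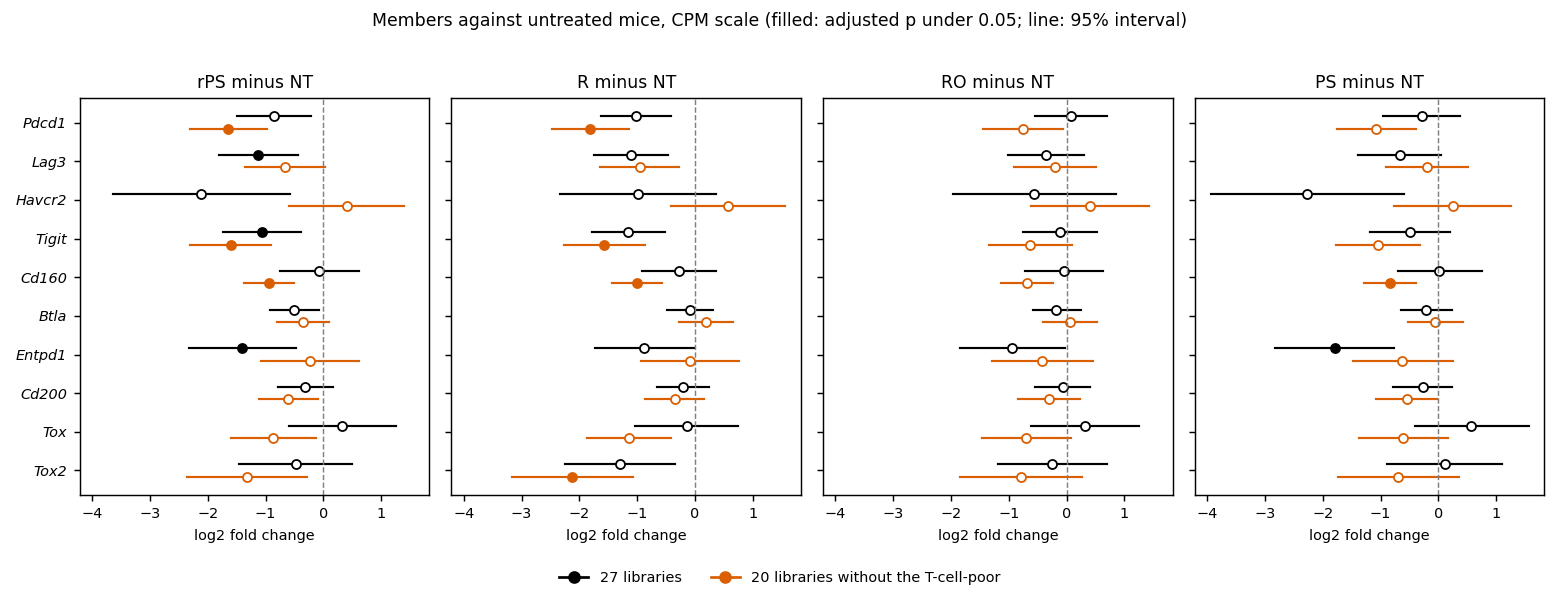
Log2 fold changes of the 10 members against NT on the CPM scale, with 95% intervals computed from the SE, in 27 libraries (black) and in 20 libraries without the T-cell-poor ones (orange); filled points passed an adjusted p under 0.05. In rPS minus NT, Havcr2 goes from -2.11 to 0.40 and Pdcd1 from -0.85 to -1.65 when the 7 libraries are left out.

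Havcr2 was called by edgeR in no comparison on the CPM scale, with 27 libraries or without the 7, and its direction turned with the choice of libraries. Its lowest, median and highest levels were 6.5, 45.2 and 63.2 CPM in NT and 9.43, 10.4 and 60.5 CPM in R. The rPS libraries held 1.55, 5.6, 11.3, 13.3 and 13.8 CPM, the PS libraries 5.03, 8.67, 10.2 and 10.3 CPM, and the RO libraries 5.72, 7.79, 8.3, 15.3 and 84.6 CPM. The highest values of R and RO were those of their T-cell-poor libraries. For rPS against NT it was at -2.11 ± 0.78 (edgeR, adjusted p = 0.0536) in 27 libraries and at 0.40 ± 0.50 (adjusted p = 0.618) without the 7. DESeq2 called it lower with 27 libraries in rPS (adjusted p = 0.0146) and PS (adjusted p = 0.0235), and edgeR called it lower in rPS without NT replicate 2, 5 or 6 and in PS with only the 2 groups compared. rPS replicate 5 had the lowest Havcr2 and Entpd1 levels of all 27 libraries and also the lowest summed monocyte and macrophage level, 284 CPM.

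Btla, Cd200 and Tox were called by edgeR in no comparison on the CPM scale, with 27 libraries or without the 7. Btla was called lower in rPS against NT in 1 of the alternative fits. Btla was spread over 124 to 366 CPM among NT libraries, over 162 to 290 CPM with empty and 120 to 222 CPM with loaded polymersomes, over 109 to 287 CPM in R and over 143 to 298 CPM in RO, with all groups overlapping. Cd200 was narrowest in PS (16 to 19.3 CPM) and RO (14.3 to 21.6 CPM), and wider in NT (9.14 to 26.4 CPM), R (6.92 to 22 CPM) and rPS (9.45 to 23.3 CPM). Tox had the widest ranges in NT (9.41 to 73.3 CPM) and rPS (13.1 to 76 CPM), beside PS (32.4 to 65.6 CPM), R (7.07 to 44 CPM) and RO (17.8 to 55.9 CPM). Tox was lowest in T-cell-poor libraries of NT, R and RO, and its groups overlapped.

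The comparisons among treated groups set no NT value against a treated one, although the NT libraries enter the same fit and its estimate of spread. On the CPM scale no member was called in rPS against PS (background 0.0817%), rPS against R (0.0117%), rPS against RO (0.0175%) or R against RO (0%), and DESeq2, run with 27 libraries, called none of the 10 in any of them. At an unadjusted p under 0.05 edgeR had 0, 0, 3 and 3 members, beside 852, 1893, 1389 and 504 of 17132 genes. Without the 7 libraries there was again no call, beside 0.516%, 0.23%, 0.0803% and 0% of all genes. Then 0, 1, 3 and 4 members had an unadjusted p under 0.05 in edgeR, beside 1750, 2613, 1505 and 1027 of 17425 genes.

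Pdcd1 and Tigit had lower estimates in injected than in oral rapamycin, and both are named here after their values were seen. Pdcd1 was at -1.10 ± 0.33 in R against RO (edgeR, unadjusted p = 0.00268, adjusted p = 1) and Tigit at -1.04 ± 0.35 (unadjusted p = 0.00571, adjusted p = 1). The 95% intervals were -1.75 to -0.45 and -1.72 to -0.37. Loaded polymersomes against RO gave -0.93 ± 0.35 for Pdcd1 (adjusted p = 0.492) and -0.94 ± 0.37 for Tigit (adjusted p = 0.511). For rPS against R the values were 0.17 ± 0.34 and 0.10 ± 0.36, with intervals of -0.49 to 0.84 and -0.60 to 0.80. None of these passed the adjusted threshold. Negative estimates were not particular to these 2 genes: 8 of the 10 members had them in R against RO and 9 in rPS against RO. Lag3 was at -0.74 ± 0.35 and -0.76 ± 0.37 in these comparisons, and Tox2 at -1.05 ± 0.52 and -0.23 ± 0.54. Without the T-cell-poor libraries Tox2 was at -1.34 ± 0.48 in R against RO. Lag3 and Tox2 were not called either. Summed T cell levels without the T-cell-poor libraries were also lower in R (1800 to 2340 CPM) than in RO (2550 to 3220 CPM). Their part in these estimates was not tested. Tigit was the 1 member of 10 for which all 6 R libraries were lower than all 5 RO libraries, a pattern held by 0.438% of tested genes. For Pdcd1, RO replicate 1 (4.66 CPM) fell among the R values.

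**Figure D4:**
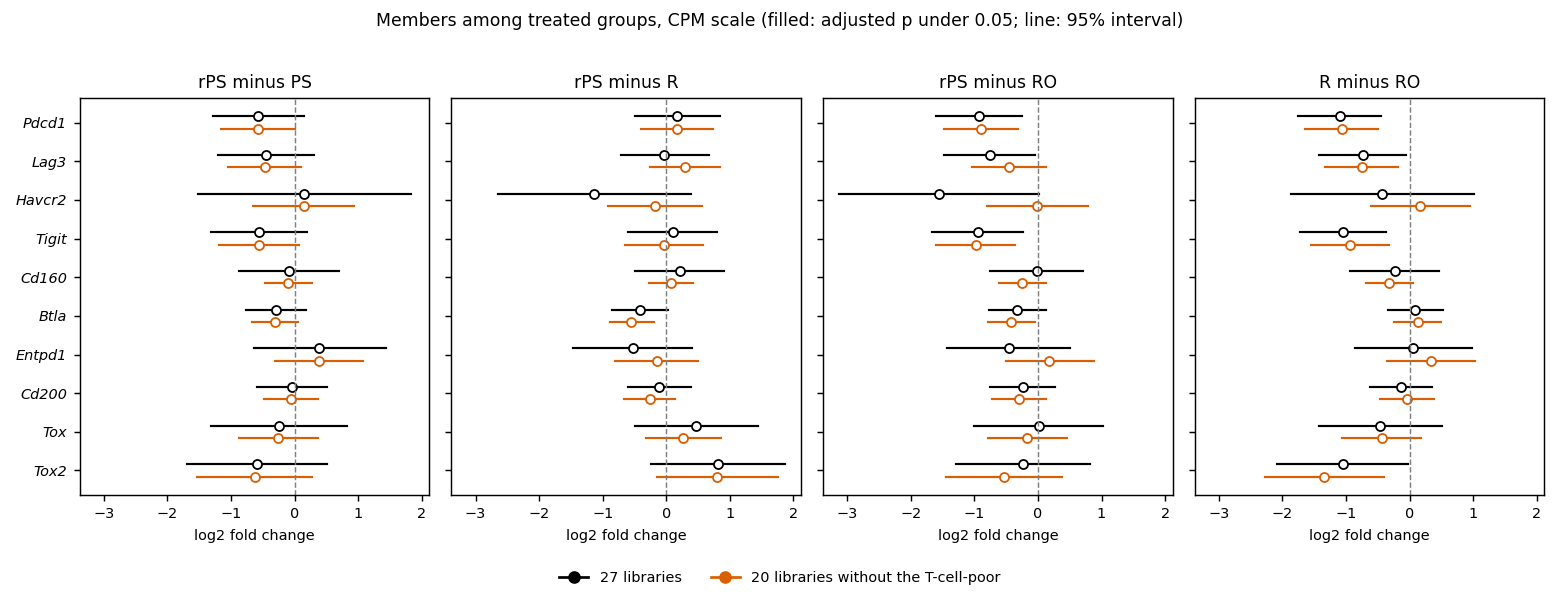
Log2 fold changes of the 10 members among treated groups on the CPM scale, with 95% intervals computed from the SE, in 27 libraries (black) and without the T-cell-poor ones (orange); no point is filled because none passed an adjusted p under 0.05. Pdcd1 and Tigit lie between -1.10 and -0.90 in both fits for rPS minus RO and R minus RO.

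Relative to Cd3e, the members' levels are given as counts per 100 Cd3e counts of the same library. In the 20 libraries with more T cell transcripts, Pdcd1 was 3.8 and 2.67 in NT, 1.69, 1.87, 1.9, 2.01 and 2.21 in R, and 1.79, 1.91, 2.05, 2.26 and 2.28 in rPS. RO held 1.84, 3.18, 3.46 and 4.93, and PS 1.37, 2.25, 3.02 and 3.53. Both NT libraries thus stayed above the R and rPS libraries on this scale, and so did 3 of 4 RO and 2 of 4 PS libraries. The share of all genes with such a separation was not computed. With the log Cd3e count as offset in these 20 libraries, Pdcd1 was not called against NT. It was at -0.73 ± 0.34 in R (edgeR, adjusted p = 0.0643) and -0.64 ± 0.35 in rPS (adjusted p = 0.102). RO replicate 7, whose Pdcd1 and Cd3e counts were intact, held 2.77.

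Tigit per 100 Cd3e counts was 2.28 and 1.14 in NT, 0.886 to 1.29 in R (median 1.28), 0.587, 0.708, 1.23, 1.35 and 1.53 in rPS, 1.51, 1.51, 2.28 and 2.33 in RO, and 0.928, 1.2, 1.47 and 1.71 in PS. With the T-cell-poor libraries set aside, the R values lay below the RO values. The share of all genes with this pattern in these libraries was not computed. With the log Cd3e count as offset, Tigit was not called there (-0.69 ± 0.32, edgeR, adjusted p = 0.741). Tox kept close to Cd3e, at 15.6 and 16.8 in NT beside 10.7 to 21.9 in rPS, 11.5 to 20.8 in PS, 14.4 to 21.2 in RO and 13 to 18.2 in R. Cd160 did so as well, between 3.11 and 6.66 in these 20 libraries. NT replicates 2 and 6, the highest in Cd160 and among the highest in Tox by CPM, lay inside the treated range for both genes per Cd3e count.

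**Figure D5:**
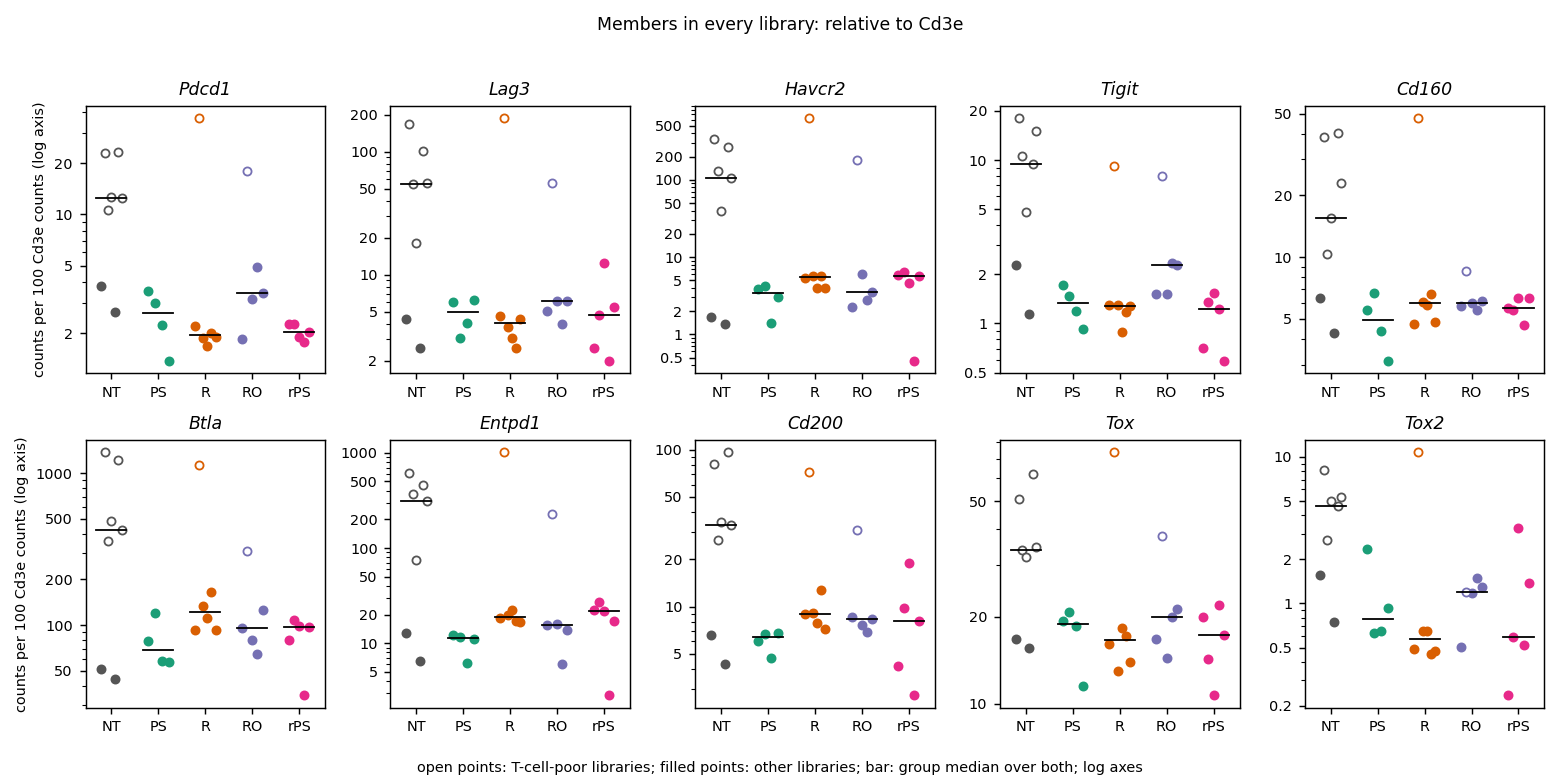
Each panel plots counts of 1 member per 100 Cd3e counts on a log axis in every library of the 5 groups, with open points for T-cell-poor libraries and a bar at the group median. The open points are high in 9 of the 10 panels without overlap with the filled ones, up to 632 for Havcr2 in R replicate 3. Tox2 is the gene whose open and filled points overlap. The T cell genes that set the open libraries apart include Cd3e, the denominator here. Cd3e was at 9.58 to 76 CPM in open and 122 to 471 CPM in filled points. High open points therefore follow in part from that choice and are not a separate result. The share of all genes with this pattern was not computed.

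With the log Cd3e count as the offset and all 27 libraries, 7 of 10 members were lower in rPS than in NT and 8 of 10 in PS (edgeR). Of all genes, 46.3% and 75.3% were lower, with medians of -2.14 and -2.56 over all genes, so the members' counts went with those of other genes. In rPS the 7 ran from -4.78 ± 1.65 for Havcr2 to -2.20 ± 0.85 for Cd200, with adjusted p from 0.0426 to 0.0439, and also included Pdcd1 (-2.60 ± 0.91), Lag3 (-3.42 ± 1.15), Tigit (-3.00 ± 0.87), Btla (-2.76 ± 0.91) and Entpd1 (-3.85 ± 1.25). In PS the 8 ran from -5.33 ± 1.88 for Havcr2 to -2 ± 0.86 for Cd160, with adjusted p from 0.0331 to 0.0385. The others were Pdcd1 (-2.30 ± 0.98), Lag3 (-3.57 ± 1.27), Tigit (-2.70 ± 0.94), Btla (-2.85 ± 1.01), Entpd1 (-4.68 ± 1.45) and Cd200 (-2.73 ± 0.96), and Tox and Tox2 were not called. In the other 6 comparisons no member was called, beside 0.0117% of genes for R against NT and for RO against NT and 0% for rPS against PS, R and RO and for R against RO. At an unadjusted p under 0.05 edgeR had 1 member in R and 4 in RO against NT, beside 671 and 4124 of 17131 genes. It had 3 members in rPS against R, beside 7962 genes. It had none in rPS against PS, rPS against RO and R against RO, beside 87, 286 and 1263 genes. DESeq2 was not run on this scale. The calls were lost singly: no member was called in rPS against NT without any 1 of the 5 rPS libraries or NT replicate 3, 4, 7 or 8, nor in PS against NT without any 1 of the 4 PS libraries or NT replicate 3 or 7, while without R replicate 3 all 10 were called in R, beside 14949 of 17131 genes, and without RO replicate 3, 6 in RO, beside 12925 genes. In R against RO with 27 libraries, Pdcd1 was at 0.14 ± 0.88 and Tigit at -0.60 ± 0.84 on this scale (edgeR, adjusted p = 0.897 and 0.546).

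Without the T-cell-poor libraries the per-Cd3e comparison with NT turned around. Havcr2 was higher in rPS at 1.58 ± 0.63 (edgeR, adjusted p = 0.0332, background 65.8% higher) and in R at 1.69 ± 0.63 (adjusted p = 0.0267), and Btla was higher in R at 1.32 ± 0.39 (adjusted p = 0.0104, background 65.1% higher). All genes had medians of 1.2 and 1.13 in these comparisons, and the members medians of 0.34 and 0.09. Pdcd1 and Tigit stood at -0.64 and -0.66 in rPS and were not called. No member was called in RO (background 29.8%) or PS against NT (18%), in rPS against PS (0.253%), R (0.0344%) or RO (0.0459%), or in R against RO (0.00574%). The members with an unadjusted p under 0.05 in these 6 comparisons were 1, 0, 0, 0, 2 and 2. Of all 17424 genes, 9038, 7598, 3954, 1364, 1869 and 1136 had such a p. Pdcd1 in R against RO, on the other side of 0 with 27 libraries, was here at -0.80 ± 0.29 and Tigit at -0.69 ± 0.32 (edgeR, adjusted p = 0.714 and 0.741). With the T-cell-poor libraries kept, no member had all R libraries below all RO libraries per Cd3e count, beside 0.0233% of tested genes.

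Other genes of the pathway are described by list. Of the ligands and binding partners, 9 of 11 were tested. Their median in rPS against NT on the CPM scale was -0.61, and that of all genes -0.01. In this comparison none was higher and 4 were lower, beside 10.6% and 10.9% of all genes. These were Cd274, the PD-1 ligand PD-L1, at -0.61 ± 0.19 (edgeR, adjusted p = 0.0251), Ceacam1 at -2.30 ± 0.71, Lgals3 at -2.67 ± 0.85, and Lgals9, galectin-9, at -0.55 ± 0.18. Without the 7 libraries Lgals9 was the 1 ligand called, lower in rPS (-0.90 ± 0.15), R (-0.86 ± 0.15), RO (-0.58 ± 0.16) and PS (-0.75 ± 0.16). Of all genes 8.63%, 2.8% and 4.65% were lower in rPS, R and PS, and 3.55% were called in either direction in RO. Relative to Cd3e without the 7, 3 ligands were higher in rPS and 4 in R, beside 65.8% and 65.1% of all genes. None was lower there. Of 10 other co-inhibitory genes, Klrg1, a receptor of NK cells and mature effector T cells, was lower in rPS at -2.55 ± 0.45 (edgeR, adjusted p = 0.000889) and in R at -1.67 ± 0.39 (adjusted p = 0.0434), and no other of the 10 was called in these 2 comparisons. Of all genes 10.9% were lower in rPS, and 0.665% were called in either direction in R. Without the 7 libraries Klrg1 stayed called, at -2.56 ± 0.49 and -1.93 ± 0.47, and Cd5 was also lower in R at -1.14 ± 0.25. Relative to Cd3e without the 7, 5 of the 10 were higher and 1 lower in rPS. Of all genes 65.8% were higher and 151 of 17424 lower there. In R, 5 were higher and none lower, beside 65.1% of all genes higher. Summed NK markers were 107 to 343 CPM in NT, 59.5 to 151 CPM in rPS and 125 to 201 CPM in R, and their part in the Klrg1 difference was not tested.

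None of the 10 costimulatory receptors was called on the CPM scale with 27 libraries. Without the 7, 5 were lower in rPS, 3 in R and 3 in PS, beside 8.63%, 2.8% and 4.65% of all genes. Relative to Cd3e without the 7, none of the 10 was lower in these 3 comparisons, 1 was higher in R, and the medians were 0.18, 0.07 and -0.15. Of all genes 65.1% were higher in R, and the medians over all genes were 1.2, 1.13 and 0.76. Tnfrsf9 (4-1BB) was at -1.63 ± 0.32 in rPS, -1.81 ± 0.32 in R and -1.28 ± 0.34 in PS (edgeR, adjusted p = 0.00331, 0.00486 and 0.0277), and Cd2, an adhesion receptor, at -0.83 ± 0.21, -0.97 ± 0.21 and -0.78 ± 0.22. Of 15 tested transcription factors of T cell differentiation and exhaustion, 4 were lower and 1 higher in rPS with 27 libraries, beside 10.9% and 10.6% of all genes. Id2, a regulator of effector T cells, was lower at -0.75 ± 0.24 and Prdm1 (Blimp-1) at -0.89 ± 0.29. The other 3 are named after their values were seen: Irf4 at -0.73 ± 0.26, Tox4 at -0.30 ± 0.10, and Nr4a3, an early gene of receptor signalling, which was the higher one at 1.02 ± 0.36 (adjusted p = 0.0425). Summed plasma cell markers, which include Prdm1, were 295 to 1370 CPM in NT and 87 to 372 CPM in rPS, and their part in the Prdm1 and Irf4 differences was not tested. Without the 7, 5 were lower in rPS, among them Eomes, a factor of memory CD8 T cells and NK cells, at -0.85 ± 0.18 (edgeR, adjusted p = 0.00486) and Tbx21 (T-bet) at -0.83 ± 0.24. Relative to Cd3e without the 7, none of the 15 was lower in rPS and 8 were higher, beside 65.8% of all genes higher. Of 9 signalling genes, Ptpn6, the phosphatase SHP-1, was lower in rPS at -0.59 ± 0.21 with 27 libraries, beside 10.9% of all genes. Without the 7, Sh2d1a (SAP) was lower in R (-1.33 ± 0.35) and PS (-1.36 ± 0.37) and Dok2 in R (-0.65 ± 0.17), beside 2.8% and 4.65% of all genes in R and PS. Relative to Cd3e without the 7, none of the 9 was lower in R or PS, and 7 were higher in R, beside 65.1% of all genes higher. No gene of these 5 lists was called on the CPM scale in a comparison among treated groups.

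The genes most like each member were taken over the 20 libraries by Spearman rho of log2 CPM among 11574 genes, as a description. Pdcd1 was most like Gbp10 (0.92), Rtp4 (0.91) and Igtp (0.89), and Tigit most like Sec61a1 (0.91), Izumo1r (0.89) and Inpp5b (0.89). Entpd1 had the closest neighbours, Hmox1 (0.98), Sdc3 (0.97) and Epb41l3 (0.97). Tox and Cd160 shared Slfn8 (0.93 and 0.92) and Aak1 (0.93 and 0.92), and Tox was the third gene for Cd160, at 0.91. Havcr2 was most like Spop (0.85), Btla like Cd55 (0.86), Lag3 like Ppif (0.85), Tox2 like Synpo (0.84) and Cd200 like Nadk (0.79). Within the set, Pdcd1 went with Tigit (0.86), Tox (0.83) and Cd160 (0.81), Lag3 with Tox2 (0.75) and Havcr2 with Entpd1 (0.59). Libraries of all 5 groups enter these values, and they share depth and cell makeup.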

How the data were processed

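RNA-seq libraries of magnetically sorted spleen T cells were deposited as 1 file per library. The deposited values are expected counts per Ensembl gene, with 21.3% to 25.0% of values above 0 fractional. Trimmomatic 0.39, STAR 2.7.5a, Cufflinks 2.1.1, Cuffdiff and build GRCm39 are named in the submitters' processing notes; which tool counted, and whether by strand, is not given in the sources used here. Counts were rounded. Symbols and exon lengths came from GENCODE M21 (GRCm38), which matched 52082 of 55413 IDs, and so no gene coordinates are given.

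Groups came from the labels, where each library has its own replicate number; whether each is a separate mouse is not stated beyond that, and p-values measure the spread between libraries. The tests were edgeR 4.0.16 in R 4.3.3 (quasi-likelihood, robust, two-sided, TMM, filterByExpr) on 27 libraries in 1 fit, and the same fit with the log Cd3e count as offset. A gene is called at a Benjamini-Hochberg adjusted p under 0.05 over all tested genes. The scripts were tested on simulated data. Members, gene lists and comparisons were chosen with earlier results of these data known. All 10 members are named, with fold changes for pairs of a member and a comparison called in any of the 4 fits; from each pathway list up to 4 called genes with the smallest p. Alternatives are listed in the closing section; leaving out T-cell-poor libraries with NT replicate 5 kept was chosen after seeing the data. Floors cover counting error only. No pair of libraries was a repeat (lowest chi-square per gene 3.3).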

Additional observations from a re-analysis of the deposited data

Results flagged for a closer look

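Of 100 groups of 4 to 10 libraries screened, 26 held a library far from the rest by Dixon's ratio, where chance gives about 1 in 20 groups. The groups are not independent, because they hold the same 27 libraries for 10 genes on 2 scales. The 26 are therefore not separate results. Nearly all were the T-cell-poor libraries R replicate 3 and RO replicate 3. All values per Cd3e count of a library share 1 denominator, 65 counts in R replicate 3 and 664 in RO replicate 3. By CPM, R replicate 3 was the lowest of its group for Tigit, at 0.884. Per 100 Cd3e counts, R replicate 3 was the highest of its group for all 10 members: Pdcd1 36.9, Lag3 188, Havcr2 632, Tigit 9.23, Cd160 47.7, Btla 1140, Entpd1 1020, Cd200 72.3, Tox 73.8 and Tox2 10.8. RO replicate 3 stood apart as the highest for 8 of them: Pdcd1 18.1, Lag3 55.4, Havcr2 180, Tigit 7.98, Cd160 8.58, Btla 306, Entpd1 226 and Cd200 30.6.

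By CPM, R replicate 3 stood apart by this ratio as the highest of its group for Havcr2 (60.5) and Entpd1 (97.4) and the lowest for Cd200 (6.92). RO replicate 3 stood apart as the highest by CPM for Havcr2 (84.6) and Entpd1 (106) and the lowest for Cd160 (4.03). Only 2 of the 26 lay outside these libraries. PS replicate 4 had the lowest Entpd1 of its group per 100 Cd3e counts, 6.14 with the next at 11.2, and PS replicate 1 the highest Tox2, 2.37 with the next at 0.928. Other members for which these 2 libraries were the highest or lowest of their group did not pass the ratio.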

How the results depend on the processing

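Calls among the 10 members were few and moved with the libraries and settings; unless a cause is named, the cause was not tested. On the CPM scale, the 3 members called in rPS against NT became 1 with all 28 libraries, 1 without the low-count filter, 0 with the replicate block, 1 with only the 2 groups compared and 5 by DESeq2, and 2 with B cell and monocyte covariates, where Lag3 (-0.48) and Entpd1 (-0.1) were no longer called, and 0 to 4 when 1 library was left out. The 0 in R against NT became 4 without the T-cell-poor libraries, 1 with NT replicate 5 kept, 3 by DESeq2 and 1 with B cell and monocyte covariates, and 0 to 2 when 1 library was left out. The 1 in PS against NT became 0 with all 28 libraries, 0 without the filter, 0 with the replicate block, 2 with only the 2 groups, 0 with NT replicate 5 kept, 2 by DESeq2 and 0 with the covariates, and 0 to 1 when 1 library was left out. Relative to Cd3e, the 7 in rPS against NT, all lower, became 1 without the T-cell-poor libraries, Havcr2, which was higher (1.58). They became 0 with all 28, without the filter, with the replicate block or with NT replicate 5 kept, and 0 to 9 when 1 library was left out. The 8 in PS against NT became 0 without the T-cell-poor libraries, without the filter or with NT replicate 5 kept, and 0 to 9 when 1 library was left out. Relative to Cd3e, R against NT went from 0 to 2 without the T-cell-poor libraries and from 0 to 10 when 1 library was left out (with up to 14949 of all genes called), RO against NT from 0 to 6 when 1 was left out (up to 12925 genes), and rPS against R to 1 with only the 2 groups.

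Directions turned for several members. Without the T-cell-poor libraries on the CPM scale, Havcr2 was at 0.4 in rPS, 0.57 in R and 0.25 in PS against NT, Btla at 0.19 in R, and Cd160 at -0.84 in PS (-0.57 with NT replicate 5 kept and -0.57 with the covariates). Leaving out 1 library gave Cd160 -0.22 to 0.2 in rPS and -0.13 to 0.28 in PS, and Btla -0.18 to 0.04 in R. Relative to Cd3e without the T-cell-poor libraries, rPS against NT gave Lag3 0.59, Havcr2 1.58, Cd160 0.1, Btla 0.8, Entpd1 0.92 and Cd200 0.66. R gave Havcr2 1.69, Cd160 0.09 and Btla 1.32, and PS gave Lag3 0.49, Havcr2 1.03, Btla 0.72, Entpd1 0.1 and Cd200 0.16. Pdcd1 in R against RO, at 0.14 with 27 libraries, was at -0.8 without the T-cell-poor libraries, -0.79 with NT replicate 5 kept and -0.34 with the replicate block. Leaving out 1 library gave -1.68 to 1.02 for it, -1.37 to 0.07 for Tigit in R against RO and -4.68 to 0.25 for Havcr2 in R against NT.

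Counts over all tested genes moved more than 1.5 times in these comparisons with NT. Across the alternatives on the CPM scale the 3688 genes called in rPS ranged from 542 to 4774, the 114 in R from 10 to 623, the 2 in RO from 2 to 618 and the 851 in PS from 2 to 2879. Relative to Cd3e the 7959 in rPS ranged from 11 to 11611, the 2 in R from 2 to 11388, the 2 in RO from 2 to 5196 and the 12902 in PS from 2 to 12853. Among treated groups no alternative called over 90 genes on the CPM scale, and relative to Cd3e rPS against R ranged from 0 to 825.

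Whether replicate numbers pair libraries was not settled, and the main fits used no replicate block. Over 38 same-numbered pairs the correlation of deviations ran from -0.36 to 0.76, with a mean of 0.08 against -0.01 for differently numbered pairs. Of these 38, 14 were over 0.1, and 7 of 27 libraries correlated best with their own number. Tigit and Tox2 rest on as few as 6 and 3 counts in a library, which limits what can be seen for them.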
